A study of Bos taurus with 2 samples.

Results

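Cysteine, glutathione and the enzymes of redox defence were followed in the muzzle of HanWoo, the native cattle of Korea, as 59 genes chosen by their known role: transporters of cystine and related amino acids, enzymes that make or break down cysteine and glutathione, glutathione peroxidases and transferases, the thioredoxin and peroxiredoxin system, superoxide dismutases and catalase, the NRF2 regulators with some of their targets, and metallothioneins. The rule itself uses no measured value, though earlier results of these data were known when the genes were listed. Array probes were found for 50 of the 59 genes, and 49 gave a ratio between the cows, out of 9647 gene symbols with a probe and 8914 with a ratio or a lower bound in all. The members SLC7A11, CSAD, GGT1, GGT5, GPX2, GSTM1, GSTP1, SRXN1 and MT1E were matched to no probe by symbol and are not analysed here, and the single probe of SLC7A9, a cystine transporter subunit best known from the kidney, did not pass the background in either cow.

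The light-muzzle sample (labelled Yellow) and the dark-muzzle sample (labelled Black) each came from the nose of a single female Hanwoo aged 30 months, described as a representative of its colour. Per the study's methods the cows were of verified pedigree, were raised alike on 1 farm, and gave the front of the muzzle, the dark animals being of medium-dark grade. RNA of each cow was read on its own 1-colour array, so that every difference is between 2 animals, has no replicate check and no test, and its precision is limited by the number of arrays. Levels are the log2 of the processed signal minus the 75th percentile of the same array, and a ratio is the difference of these log2 levels, dark-muzzle cow minus light-muzzle cow, with a call made at 2-fold (a ratio of at least 1 or at most -1).

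Melanin is of 2 kinds in cattle. Black eumelanin forms from dopaquinone alone, whereas yellow to red pheomelanin forms when dopaquinone takes up cysteine, so the cystine brought into the cell and into the melanosome bears on the pigment made. Cysteine is also the limiting building block of glutathione, the main small thiol of the cell, which peroxidases and transferases use against peroxides and reactive compounds, which glutathione reductase restores with NADPH, and whose genes are partly under the transcription factor NRF2 and its inhibitor KEAP1.

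The signal passed the background for 78.8% of noncontrol spots in the light-muzzle and 81.9% in the dark-muzzle cow, and 0 spots were saturated. Keratinocyte genes of the muzzle epidermis were bright in both cows, with KRT14 at 7.52 in the light-muzzle and 7.12 in the dark-muzzle cow. Of 7 keratinocyte markers measured, 3 (KRT15, KRT10 and IVL) were higher by 2-fold or more in the dark-muzzle cow and 0 lower. Over all genes, 9.86% were higher and 6.47% lower by as much. The median ratio of the 7 markers was 0.96, with 4 above 0 and 3, KRT14 among them, below. Their summed linear level was 435 in the light-muzzle and 677 in the dark-muzzle cow. That rise leaned on KRT10, read by 1 probe, at 6.92 in the light-muzzle and 8.49 in the dark-muzzle cow. KRT5 and KRT14, also bright, had ratios of -0.52 and -0.41. Other tissue differed between the pieces as well. Of 11 skeletal muscle markers with a ratio, 10 were higher by 2-fold or more in the dark-muzzle cow (median ratio 3.01), their summed linear level being 164 in the light-muzzle and 1100 in the dark-muzzle cow. The exception was CA3, at -1.32. Of 8 serous gland markers with a ratio, 6 were lower by 2-fold or more in the dark-muzzle cow (median -2.50) and 1, BPIFA1, was higher (1.29), their summed level being 260 in the light-muzzle and 14.6 in the dark-muzzle cow, and ODAM passed the background in neither. Lists for fibroblasts, leukocytes, red cells, adipocytes and endothelium had medians between -0.65 and 0.83. Of 6 adipocyte markers with a ratio, 3 were higher (background 9.86%) and 1 was lower (background 6.47%) by 2-fold or more in the dark-muzzle cow. All 6 endothelium markers were above 0, 2 of them by 2-fold or more. Of 7 fibroblast markers 1 was lower by as much, and 0 leukocyte or red cell markers passed 2-fold. The part of these tissue differences in the ratios below was not tested, and in whole tissue fewer cells of a type and less RNA per cell cannot be told apart.

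Most redox genes lay within 2-fold between the cows. Among the 49 measured members, 5 were higher by 2-fold or more in the dark-muzzle cow (10.2%, against 9.86% of all genes) and 2 were at least 2-fold lower (4.08%, against 6.47% of all genes). With normexp background correction the counts were again 5 higher and 2 lower among the members. Over all genes the higher count fell from 879 of 8914 to 635 of 8908, and the lower count from 577 to 371. The shares over all genes thus depended on that setting. The other 42 lay within 2-fold, against 7458 of all 8914 genes with a ratio or lower bound. The median ratio was 0.048 over the members and 0.055 over all genes. Of the members, 26 were above 0 and 23 below, against 4918 and 3996 of all 8914 genes. The members' ratios lay within 0.5 of 0 for 35 genes (71.4%), against 62.8% of the 8508 genes measured on both arrays, lower bounds left out. At a fold of 1.5, 8 members were higher (16.3%, against 19.8% of all genes) and 6 were lower (12.2%, against 13.6%). The 5 higher members were PRDX3, GSTA1, MGST3, GSR and SOD2, and the 2 lower members were MT3 and GSTT1.

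**Figure D1:**
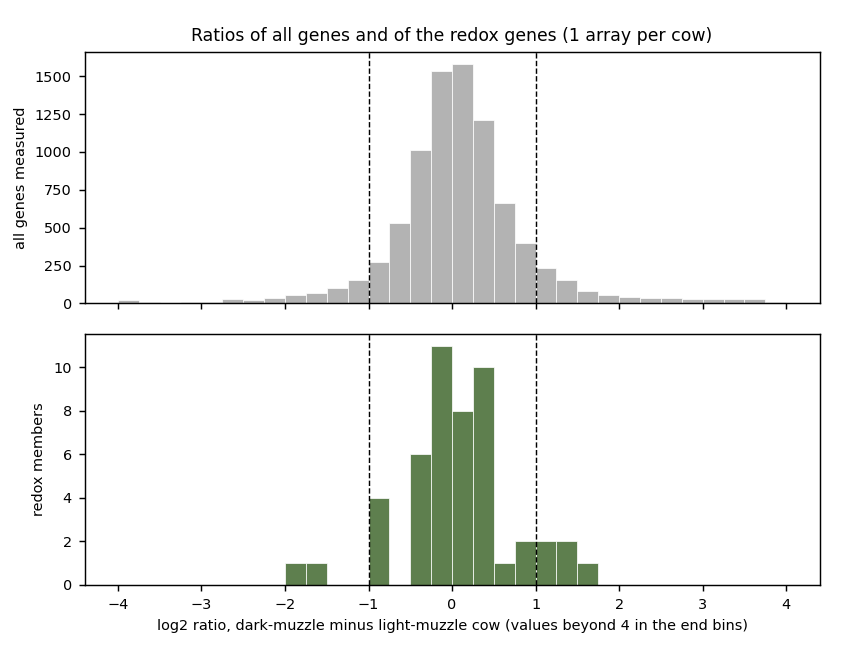
Number of genes per step of 0.25 in the log2 ratio, dark-muzzle minus light-muzzle cow, for all genes measured on both arrays (top) and for the 49 redox members (bottom), with dashed lines at 2-fold. The members lie around 0 as all genes do, with 5 beyond the right line and 2 beyond the left one.

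Members read by several probes allow a look at how firmly a ratio was measured. Of 31 members with at least 2 measured probes, 26 had all probes on the same side of 0 and 5 had probes on both sides. The SD between probes of a member had a median of 0.12 and reached 0.75 in GSTT1, and over all 5363 genes with several probes its median was 0.17. The error that the scanner software assigned to a probe's ratio was 0.20 to 0.36 for the 103 measured member probes. Each of the 7 members past 2-fold had a ratio well beyond that error, which covers the array measurement and not the difference between animals of a colour. For 18 members the ratio rests on 1 probe.

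**Figure D2:**
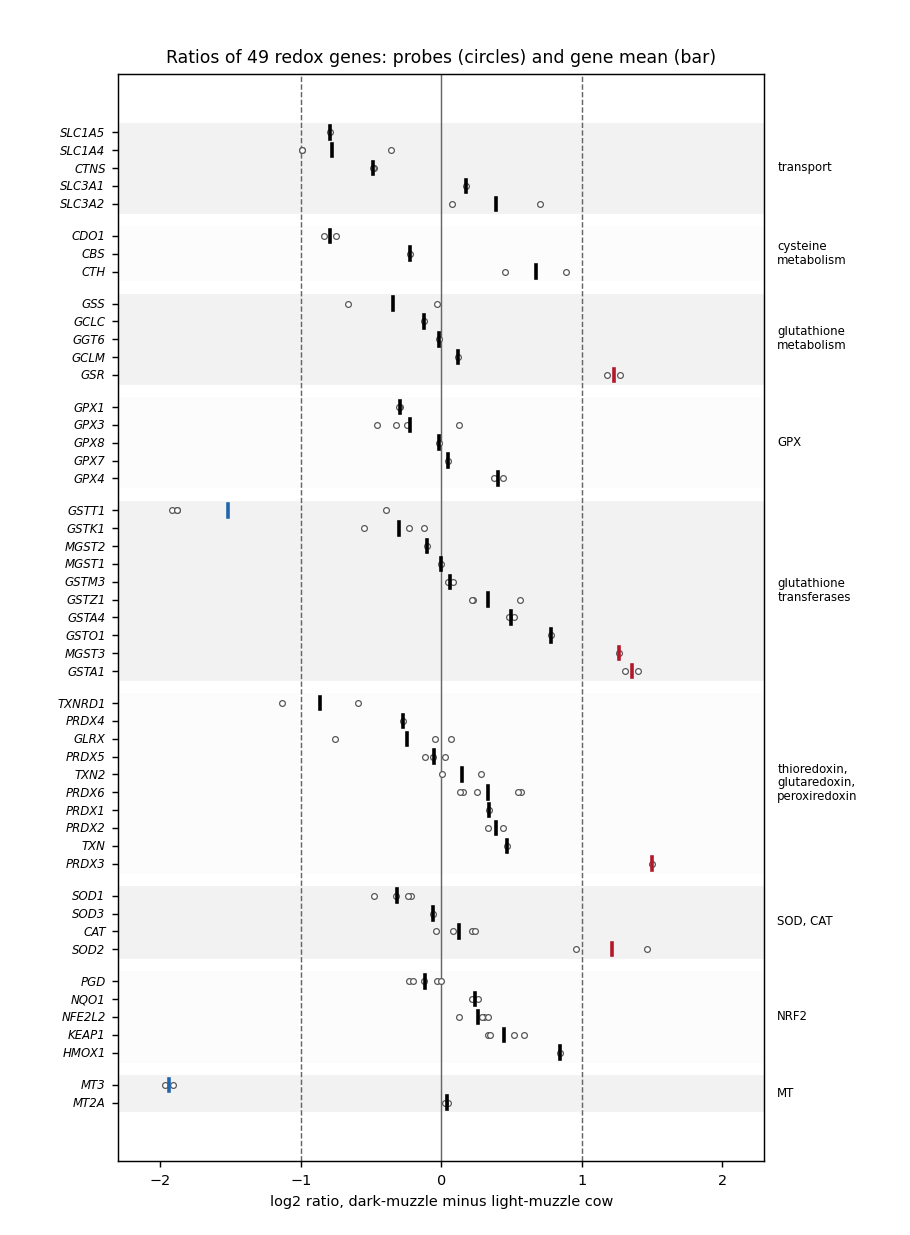
Log2 ratio, dark-muzzle minus light-muzzle cow, of each measured probe (open circles) and of the gene (bar, the mean of its probes) for the 49 measured members in their 9 role groups, with dashed lines at 2-fold. Red bars mark the 5 genes at least 2-fold higher and blue bars the 2 lower by as much in the dark-muzzle cow, and the circles of GSTT1 show 1 probe apart from the other 3.

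The supply of cystine and cysteine was the question closest to pigment type. None of the members measured for it reached 2-fold, and neither did 7458 of all 8914 genes, so this does not set them apart. SLC3A2 (the heavy chain that carries the cystine importer xCT, and other amino acid transporters, to the membrane) stood at -0.62 in the light-muzzle and -0.22 in the dark-muzzle cow, a ratio of 0.39. Its probes gave 0.08 at the brighter and 0.70 at the dimmer, so the size of the difference depended on the probe. xCT itself is encoded by SLC7A11, which was matched to no probe, so the importer was not measured. CTNS (cystinosin, which carries cystine out of lysosomes and related organelles) stood at -1.55 in the light-muzzle and -2.04 in the dark-muzzle cow. Its ratio was -0.48, with -0.48 and -0.49 at its measured probes, while the third probe passed the background in neither cow. The neutral amino acid transporters SLC1A4, which takes alanine, serine and cysteine, and SLC1A5, the main glutamine carrier, were both lower in the dark-muzzle cow, short of 2-fold. SLC1A4 went from -1.54 in the light-muzzle to -2.32 in the dark-muzzle cow, and 2 of its 3 probes gave -0.995 and -0.991 while the third gave -0.36. SLC1A5 went from 2.51 to 1.72 on its only probe, a ratio of -0.79. SLC3A1, the partner of SLC7A9, was close to the detection limit in both cows on its 1 measured probe. It stood at -4.51 in the light-muzzle and -4.33 in the dark-muzzle cow, with a ratio of 0.18. Over the 5 measured transporters the median ratio was -0.48, with 2 above 0 and 3 below.

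Within the cell, cysteine is made from methionine by transsulfuration. CBS, which opens that route, stood at -1.01 in the light-muzzle and -1.24 in the dark-muzzle cow (ratio -0.22, 1 probe). CTH, which releases cysteine at its end, stood at -2.23 in the light-muzzle and -1.56 in the dark-muzzle cow, a ratio of 0.67 (1.59-fold higher), its probes giving 0.45 and 0.89. The enzyme that oxidises cysteine for breakdown, CDO1, lay on the other side. Its level was -2.23 in the light-muzzle and -3.02 in the dark-muzzle cow, a ratio of -0.79 (1.73-fold lower), with -0.83 and -0.75 at its probes. Thus, of the 2 measured genes for making cysteine, CTH was higher and CBS slightly lower in the dark-muzzle cow. The gene for oxidising it was lower, and all 3 were short of 2-fold.

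The measured genes of glutathione synthesis lay within 2-fold between the cows, as did 7458 of all 8914 genes. The recycling enzyme was past 2-fold. GCLC, the catalytic subunit of the rate-limiting glutamate-cysteine ligase, was at -3.50 in the light-muzzle and -3.62 in the dark-muzzle cow, a ratio of -0.12. Its modifier subunit GCLM was at 0.32 and 0.44, a ratio of 0.12 to the other side. Both differences were smaller than the software error of a single probe. GSS, glutathione synthetase, was at -3.17 and -3.52 (ratio -0.35), with -0.67 at its brighter and -0.03 at its dimmer probe. The dimmer probe read 33.9 in the light-muzzle and 33.1 in the dark-muzzle cow, close to the detection limit, so the size of the difference depended on the probe. GGT6, of the family that splits extracellular glutathione, had a ratio of -0.02. GSR (glutathione reductase, which returns oxidised glutathione to its reduced form) stood at -0.24 in the light-muzzle and 0.98 in the dark-muzzle cow. The processed signal of its probes was 1939 and 482 in the light-muzzle cow against 4362 and 1160 in the dark-muzzle cow. Both probes were thus past 2-fold (1.18 and 1.27), the gene ratio was 1.23 (2.34-fold higher), and 7.21% of all genes had a higher ratio.

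Among the glutathione peroxidases, which reduce peroxides at the cost of glutathione, all 5 measured genes lay within 2-fold, as did 7458 of all 8914 genes. The extremes were GPX4, the enzyme for lipid peroxides in membranes, at 0.41 (2.31 in the light-muzzle, 2.72 in the dark-muzzle cow), and GPX1, the common cytosolic form, at -0.30 (4.48 and 4.18). Both had probes in close accord, with 0.37 and 0.44 for GPX4 and -0.29 and -0.30 for GPX1. GPX3, the secreted form, had a ratio of -0.23, with 3 probes below 0 and 1 above. GPX7 and GPX8, which act in the endoplasmic reticulum, were at 0.05 and -0.01.

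Glutathione transferases, which join glutathione to reactive compounds, ranged from -1.52 to 1.35 among the members. Of 10 measured, 2 were higher (background 9.86%) and 1 was lower (background 6.47%) by 2-fold or more in the dark-muzzle cow. GSTA1, an alpha class enzyme, stood at 1.40 in the light-muzzle and 2.76 in the dark-muzzle cow. Its probes read signals of 3495 and 2612 in the light-muzzle cow against 8612 and 6846 in the dark-muzzle cow, so that both gave more than 2-fold (1.31 and 1.40; gene ratio 1.35, 2.56-fold higher). MGST3, a membrane-bound enzyme of the microsomal family, read 16067 in the light-muzzle and 38383 in the dark-muzzle cow on its only probe, a ratio of 1.26 (2.40-fold higher). The other microsomal members did not share this difference, with MGST1 at -0.0047 and MGST2 at -0.10.

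GSTT1, the theta class member, was the opposite case. It stood at 1.70 in the light-muzzle and 0.19 in the dark-muzzle cow, a ratio of -1.52 (2.87-fold lower). Of its 4 probes, 3 gave nearly the same ratio (-1.92, -1.88 and -1.88), with signals of 9398, 10459 and 1057 in the light-muzzle cow against 2469, 2826 and 285 in the dark-muzzle cow. The other probe read 1858 and 1407, a ratio of -0.39, so the probes disagreed on the size and not on the side. The remaining transferases were within 2-fold: GSTO1, of the omega class, was at 0.78 on 1 probe (1.75 in the light-muzzle and 2.53 in the dark-muzzle cow), GSTA4 at 0.50, GSTZ1 at 0.33, GSTM3 at 0.07 and GSTK1 at -0.30. Transferases of a class are close in sequence, and how far a probe of GSTA1, GSTM3 or GSTT1 also reads a relative was not tested.

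The thioredoxin system, which keeps protein thiols reduced beside glutathione, held the highest ratio of all members. PRDX3, the mitochondrial peroxiredoxin that removes hydrogen peroxide, read 3536 in the light-muzzle and 9945 in the dark-muzzle cow on its only probe. Its level went from 1.63 in the light-muzzle to 3.13 in the dark-muzzle cow, a ratio of 1.5 (2.83-fold higher), and 4.97% of all genes had a higher ratio. The other peroxiredoxins stayed within 2-fold. PRDX2 was at 0.39, PRDX1 at 0.34 and PRDX6 at 0.33, all with every probe above 0, while PRDX5 was at -0.05 and PRDX4, of the endoplasmic reticulum, at -0.28. TXN, the cytosolic thioredoxin, was at 3.17 in the light-muzzle and 3.63 in the dark-muzzle cow (ratio 0.47, 1 probe), and the mitochondrial TXN2 had a ratio of 0.14. TXNRD1, the cytosolic reductase that recharges thioredoxin, lay on the other side, at -0.01 in the light-muzzle and -0.87 in the dark-muzzle cow. Its ratio of -0.86 (1.82-fold lower) came from -0.59 at the bright probe and -1.14 at a dim one. The recharging enzymes of glutathione and of thioredoxin, GSR and TXNRD1, therefore lay on opposite sides of 0. GLRX, glutaredoxin, had a ratio of -0.24 that came from 1 of 3 probes (-0.76, against 0.07 and -0.05).

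Superoxide dismutases turn superoxide into hydrogen peroxide, each in its own compartment, and the 3 forms differed in the ratio. SOD2, the mitochondrial form, had signals of 2107 and 1024.5 at its probes in the light-muzzle cow against 4075 and 2810 in the dark-muzzle cow. Its level was 0.36 in the light-muzzle and 1.57 in the dark-muzzle cow, a ratio of 1.21 (2.32-fold higher), from 0.96 at the brighter and 1.46 at the dimmer probe. SOD1, the cytosolic form, had a level of 3.40 in the light-muzzle and 3.09 in the dark-muzzle cow. Its ratio was -0.31 with all 4 probes between -0.48 and -0.21, and SOD3, the extracellular form, had a ratio of -0.06. CAT, catalase of the peroxisome, was at 0.13, with 1 of 4 probes below 0. Both members past 2-fold for mitochondrial enzymes, PRDX3 and SOD2, were higher in the cow whose skeletal muscle markers were also higher. The mitochondrial TXN2 did not share the size of this difference, with 0.0045 and 0.28 at its probes. Muscle fibres are rich in mitochondria, and the part of muscle in these ratios was not tested.

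Of the 5 regulators and targets of NRF2, 4 lay on the higher side in the dark-muzzle cow, and none reached 2-fold. Over all genes, 4918 of 8914 lay on that side and 7458 lay within 2-fold. NFE2L2, which encodes NRF2, had a ratio of 0.26 with all 4 probes above 0 (0.13 to 0.33). KEAP1, which marks NRF2 for breakdown, had 0.45, also with all 4 probes above 0 (0.33 to 0.59). Both the activator and its inhibitor were thus slightly higher. Of the targets, HMOX1, the heme-degrading enzyme, had the widest difference, with 0.59 in the light-muzzle and 1.43 in the dark-muzzle cow (ratio 0.84, 1 probe). NQO1, a quinone reductase, was at 0.24 (0.22 and 0.26 at its probes). PGD, which makes NADPH in the pentose phosphate pathway, had a ratio of -0.12 (2.44 in the light-muzzle and 2.32 in the dark-muzzle cow). The group median was 0.26, against 0.055 over all genes, and GCLC and GCLM, which are NRF2 targets as well, lay at -0.12 and 0.12.

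**Figure D3:**
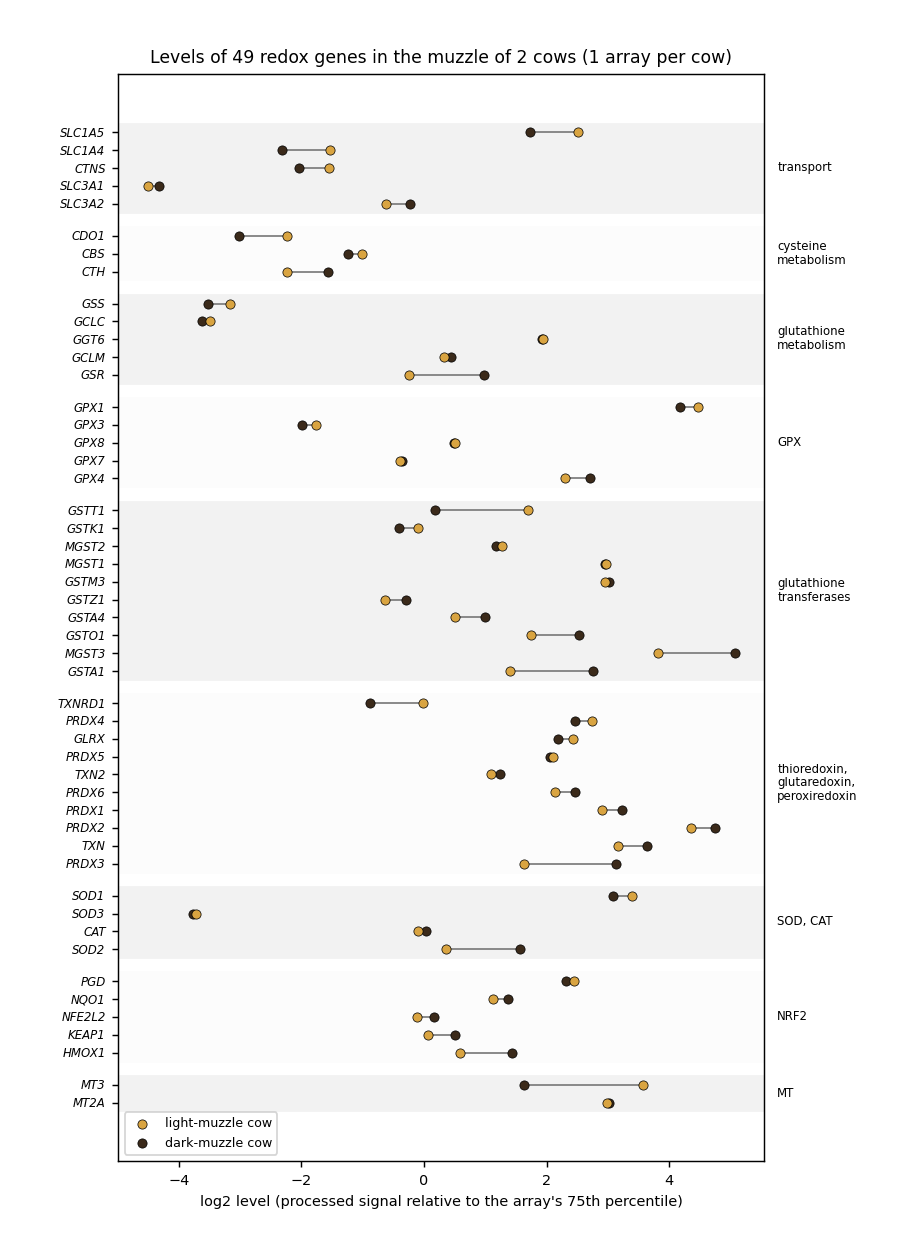
Log2 level, relative to the 75th percentile of the array, of the 49 measured members in the light-muzzle cow (yellow) and the dark-muzzle cow (dark brown), in their 9 role groups with 1 array per cow. Long lines mark the 7 genes past 2-fold, such as MT3 (3.57 light, 1.63 dark) and PRDX3 (1.63 light, 3.13 dark), while GCLC, GCLM and GGT6 have nearly touching points. Levels of different genes come from different probes and are not to be compared.

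Metallothioneins are small proteins whose many cysteines hold zinc and copper. MT3 had the lowest ratio of all members. Its probes read 13891 and 13233 in the light-muzzle cow against 3524.5 and 3496 in the dark-muzzle cow. The level was 3.57 in the light-muzzle and 1.63 in the dark-muzzle cow, a ratio of -1.94 (3.84-fold lower), with -1.97 and -1.91 at the probes, and 1.96% of all genes had a lower ratio. MT2A, the broadly expressed form, was nearly equal in the cows, at 2.98 and 3.02, a ratio of 0.04.

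The metallothionein genes lie next to each other in the genome, which set the contrast between MT3 and MT2A in its place. In the order of coding genes of the RefSeq annotation of ARS-UCD2.0, a later assembly than the one the array was designed on, the run was MT1A, LOC768319, LOC613358, MT2A, MT3 and MT4. The first 4 genes had ratios of 0.05, 0.25, -0.20 and 0.04. The last 2 were those that differed, with MT3 at -1.94 and MT4 at -2.93, the latter on 1 probe that read 7225 in the light-muzzle and 941 in the dark-muzzle cow. MT4 is known from stratified squamous epithelium and is listed here as another gene of metal handling, not as a member. Neighbours in this run are similar in sequence, and how far a probe reads more than 1 of them was not tested.

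The alpha class transferases gave a second such run, in the order GSTA2, GSTA1, GSTA5, GSTA3 and GSTA4, in which the ratios took both signs. GSTA1 at 1.35 lay between GSTA2 at -1.05 (385 and 185 on 1 probe) and GSTA3 at -3.02, and GSTA4 was at 0.50. GSTA5 had no ratio. The probes of GSTA3 gave -2.27 and -3.78, on signals of 364.5 and 365 in the light-muzzle cow against 75.1 and 26.5 in the dark-muzzle cow. Of the relatives of GSTA1 with a ratio in this run, GSTA2 and GSTA3 were thus on the other side of 0 and GSTA4 on the same side.

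**Figure D4:**
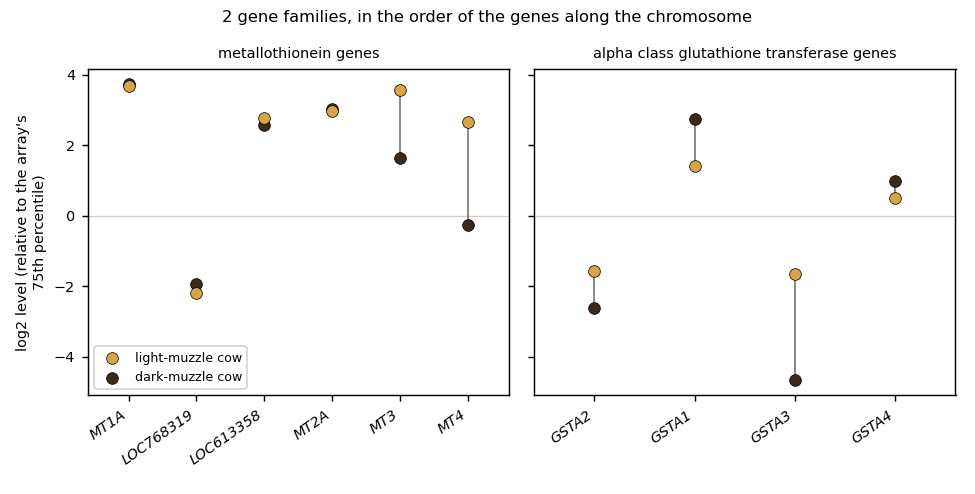
Log2 level, relative to the 75th percentile of the array, of the metallothionein genes (left) and the alpha class glutathione transferase genes (right) in the light-muzzle cow (yellow) and the dark-muzzle cow (dark brown), in the order of the genes along the chromosome. MT3 and MT4 at the end of the first run are lower in the dark-muzzle cow, with ratios of -1.94 and -2.93, and in the second run GSTA1 is higher while GSTA2 and GSTA3 are lower.

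Genes of the same pathways outside the members were taken from 6 further lists of 106 genes, of which 83 had a ratio. Of these, 10 were higher (background 9.86%) and 11 lower (background 6.47%) by 2-fold or more in the dark-muzzle cow, with a median of 0.043. In cysteine and methionine metabolism the higher genes were GOT1 (1.85) and GOT2 (1.56), the cytosolic and mitochondrial aspartate aminotransferases, and SQOR (1.13), which oxidises sulfide. The lower ones were SUOX (-1.47), the sulfite oxidase, GCAT (-1.74), an enzyme of threonine breakdown, and the glutamate and cysteine transporter SLC1A1, which was well above background only in the light-muzzle cow (at least 1.83 lower on the log2 scale, a bound of -1.83). Among 18 measured glutathione enzymes of these lists, 4 were lower (background 6.47%) and 0 were higher (background 9.86%). The 4 were GGT7 (-3.23), a relative of the glutathione-splitting enzymes read by 1 probe, GSTA3, GSTA2 and ANPEP (-1.84). ANPEP is a surface peptidase that can split the dipeptide left from glutathione. In the thioredoxin group MSRB1, a methionine sulfoxide reductase, had the highest ratio of all these lists at 2.15, with SESN2 at 1.38.

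Of 7 measured genes that supply NADPH, the electron source of GSR and TXNRD1, 2 were higher by 2-fold or more (background 9.86%) and 0 lower. Both encode mitochondrial enzymes, NNT at 1.62 (1.61 and 1.64 at its probes) and IDH2 at 1.29 (3 probes, 1.20 to 1.33). Of 17 measured NRF2 partners and targets, 3 were higher by 2-fold or more (background 9.86%). They were AKR1B1 (1.41) and CBR1 (1.32), which reduce carbonyls, and SQSTM1 (1.06, probes 0.61 to 1.89), which binds KEAP1. Another 3 were lower (background 6.47%), CES1 (-2.44), EPHX1 (-1.45) and NQO2 (-1.12). Of all 17 ratios, 11 were above 0 and 6 below, so this list lay on both sides. Among 12 measured genes of metal and superoxide handling, MT4 alone passed 2-fold.

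Pigment genes of the same arrays can be set beside the supply of cysteine. TYR, the tyrosinase that makes dopaquinone, was at -3.60 in the light-muzzle and -2.27 in the dark-muzzle cow (ratio 1.34), and PMEL, the fibril protein of the melanosome, had 1.70. TYRP1, an enzyme of eumelanin, passed the background in the dark-muzzle cow alone, its ratio being at least 3.28. DCT was at -0.52, MITF at 0.86, MC1R at 0.05 and ASIP at -0.06. Of the cysteine and glutathione genes, SLC3A2 was at 0.39, CTNS at -0.48, SLC1A4 at -0.78, SLC1A5 at -0.79, CTH at 0.67, CBS at -0.22, CDO1 at -0.79, GCLC at -0.12, GCLM at 0.12 and GSS at -0.35, while SLC1A1, no member, had its bound of -1.83. How these RNA differences relate to cysteine or pheomelanin in the tissue was not measured.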

How the data were processed

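Total RNA of 1 light-muzzle and 1 dark-muzzle cow was labelled and read on 1 Agilent 1-colour bovine array each. The authors deposited the output of Agilent Feature Extraction (version 10.7.3.1 per the submitters' processing notes), whose processed signal per spot is a background-subtracted intensity. The authors also deposited a log2 table per probe made in GeneSpring, which lay within 0.01 of the levels computed here for 43625 of 43639 probes and served as an alternative.

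The 75th percentile (an intensity of 1144 and 1137 in the light-muzzle and dark-muzzle cow) over 43803 noncontrol spots was subtracted from the log2 processed signal. Outlier spots (13 per array) were dropped, and repeated spots of a probe averaged. A gene's ratio is the mean over its probes marked well above background in both cows. Without such a probe, a gene took its largest lower bound, the bright level minus the higher of the dim probe's own level and that array's detection limit (the lowest level marked well above background, -5.78 light and -5.81 dark). A summed level adds the linear values of the genes of a list. Probes were named by accession through the RefSeq table of ARS-UCD2.0 (20587 probes), which was also used for gene order. No coordinates were taken from it, and probe, promoter and protein sequences were not used here.

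Every member is accounted for. Both levels were given for members past 2-fold, for the genes of cystine and glutathione supply and for extremes of a group, and other pathway genes were named past 2-fold. The members and lists were chosen with earlier results of these data known.

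Alternatives were quantile and loess (span 0.3) normalization, a shift to the 50th percentile, normexp (offset 50, on the median pixel signal, as the mean was not used here), dim probes unfiltered or, in turn, all lower bounds left out, the outlier spots put back, the authors' table, the brightest probe, and a 1.5-fold threshold. Matching by RefSeq synonym was added after seeing the data. The steps were run on simulated data whose changes lay well past the threshold and whose noise was small. This checks the code, and calls near 2-fold, disagreeing probes and the spread between animals were not tested. Python 3.11.15, numpy 2.4.6, pandas 2.3.3, R 4.3.3 and limma 3.58.1 were used. The study's RT-PCR was not analysed here.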

Additional observations from a re-analysis of the deposited data

How the results depend on the processing

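The number of members higher by 2-fold or more in the dark-muzzle cow was 4 to 5 over the alternatives, the lower value with the brightest probe of each gene, where SOD2 was at 0.96, and the number at least 2-fold lower was 2 in each. At a 1.5-fold threshold 8 members were higher and 6 were lower. The median ratio of the members ranged from -0.0099 (loess) to 0.080 (normexp) and so had no settled sign. Of the members' values under 9 alternatives, 424 moved by less than 0.17, the median SD between probes of a gene over all genes, and 17 by more, of which 10 did so with the brightest probe. Some settings could hardly move a member, so the 424 says little of robustness. No member had a probe with a lower bound, and 0 member probes differed in the authors' table. A percentile shift moves all genes alike. These settings, and the outlier spots put back, each left 49 of 49 values in place. No member changed sign by a move larger than 0.17, and 42 of 49 had the same sign throughout, the exceptions being GGT6, GPX8, GSTM3, MGST1, SOD3, CAT and MT2A, all near 0. The members past 2-fold ranged over these alternatives from 1.42 to 1.5 (PRDX3), 1.30 to 1.35 (GSTA1), 1.05 to 1.31 (MGST3), 1.17 to 1.23 (GSR), 0.96 to 1.21 (SOD2), -2.04 to -1.91 (MT3) and -1.88 to -1.43 (GSTT1). Over all genes, 879 were at least 2-fold higher and 577 lower, against 635 and 371 with normexp, and the cause was not tested. Matching by accession alone equals the setting used, since the files carry no gene names, and was not run apart. No paired analysis was possible because each group has 1 array. Dim members such as SLC3A1 lie close to background, and with 1 cow per colour no alternative gives the spread between animals.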

Other observations

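Some listed genes without a probe by symbol have relatives that the RefSeq table gives as a synonym of them, a match added after seeing the data. LOC281806, listed under GSTP1, the pi class transferase, was at 4.43 in the light-muzzle and 5.09 in the dark-muzzle cow, which gave 0.67 as its ratio over 2 probes. LOC327709 and LOC783879, both listed under GSTM1, had log2 ratios of -0.16 (5 probes) and 0.27 (2 probes). LOC613358, LOC768319 and MT1A, listed under MT1E, had -0.20, 0.25 and 0.05. None of these reached 2-fold, and with them the median of the members was 0.054.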
